A study of Schizosaccharomyces pombe with 32 samples.

Results

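The genes described here lie at chromosome ends of the fission yeast Schizosaccharomyces pombe and were picked by the sequencing clone in their systematic name. The rule took 14 clones (SPAC212, SPAC977, SPAC1F8, SPAC11D3, SPAC5H10, SPAC750, SPAC186, SPAC869, SPBC1348, SPBPB10D8, SPBPB21E7, SPBC359, SPBC1683 and SPBCPT2R1) and left out genes whose symbol starts with mug or meu. Of the genes it covered in the RefSeq gene table (assembly ASM294v3), 125 had a probe, out of 4819 genes on the arrays. The rule uses no measured value, but it was proposed with earlier results of these data known. By the order of genes in that table, 64 of the 125 belong to the left end of chromosome I, 28 to its right end and 33 to the left end of chromosome II. A further 30 had no probe listed, among them all 9 genes of clone SPBCPT2R1, at the right end of chromosome II, and all 10 of SPBPB21E7. Of the 125 genes, 56 have a symbol and the others are given by systematic name, with no role assigned to them.

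The series followed nitrogen starvation on 32 spotted 2-colour arrays, with Cy5 for polyA RNA of the starved cells and Cy3 for that of their strain while growing. Cells growing in the rich medium YES at 30C were washed into EMM2-N, a minimal medium with no nitrogen source, and collected each hour from 1 to 8 h. Starvation alone was followed in the strain labelled L972, and starvation with 0.5 ug/ml of synthetic P-factor, the mating pheromone released by P cells, in the strain labelled CRL672. Each hour of each condition had 2 arrays, and their numbers form 2 series per condition, called replicate 1 and replicate 2. The labels give no genotype for either strain, so pheromone and strain change together and cannot be told apart. In both conditions the 4 measured marker genes of M cells, the mating type that responds to P-factor, were higher than in growing cells. Their medians were 4.46 without P-factor and 5.96 with it, on the log2 scale. Of 3 genes taken here as markers of P cells, map1 (1.28 and 1.79) and sxa1 (0.41 and 0.69) were higher too. Whether their transcripts are confined to P cells was not tested. The P-cell marker map3 was lower without P-factor, at -0.61 (limma, adjusted p = 0.00531). With P-factor it stood at -0.40 (adjusted p = 0.0565).

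The ends of fission yeast chromosomes carry telomere repeats and, beside them, subtelomeric domains whose chromatin keeps many genes low in growing cells. Histone methylation, deacetylases and the telomere-binding complex take part in that silencing. The neighbouring stretch holds many genes for transporters, cell surface proteins and enzymes of nutrient use, several of which are known to respond to nitrogen. The telomere-linked helicase gene tlh1 (SPAC212.11) is the outermost measured gene at the left end of chromosome I.

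Values are log2 ratios of starved over growing cells. The sources used here do not name the base of the logarithm, so base 2 was taken by convention and a fold would differ with another base. A zero means the level of growing cells after each array was centred on its median over all genes and the probes that name no single gene. Errors after ± are standard errors of a limma fit over all 32 arrays, and adjusted p-values are limma's, two-sided, with Benjamini-Hochberg adjustment over all 4811 genes tested. A gene was called higher or lower at an adjusted p below 0.05. All 125 chromosome end genes were tested, and 118 had a value on all 32 arrays.

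Chromosome end genes stood above the level of growing cells on most arrays. Averaged over 1 to 8 h without P-factor, 63 of the 125 were higher than in growing cells and 18 were lower, against 33.7% higher and 35.3% lower of all genes tested. Their median was 0.39, and the median of all genes was -0.00. With P-factor 59 were higher and 18 lower, against 33.9% and 32.8% of all genes, with a median of 0.39 against 0.02. More than a 2-fold increase was seen for 41 of the 125 without P-factor and 38 with it, against 703 and 698 of all 4811 genes. The right end of chromosome I had the highest median (0.90 without P-factor and 0.87 with it), with 17 and 16 of its 28 genes higher and only the cationic amino acid transporter gene cat1 lower. At the left end of chromosome I the medians were 0.37 and 0.23, with 32 and 27 of 64 genes higher and 12 and 13 lower. At the left end of chromosome II they were 0.15 and 0.36, with 14 and 16 of 33 higher and 5 and 4 lower. The condition means share no arrays, but all arrays share the design of starved against growing cells, so a dye bias of a gene would stay in both.

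**Figure D1:**
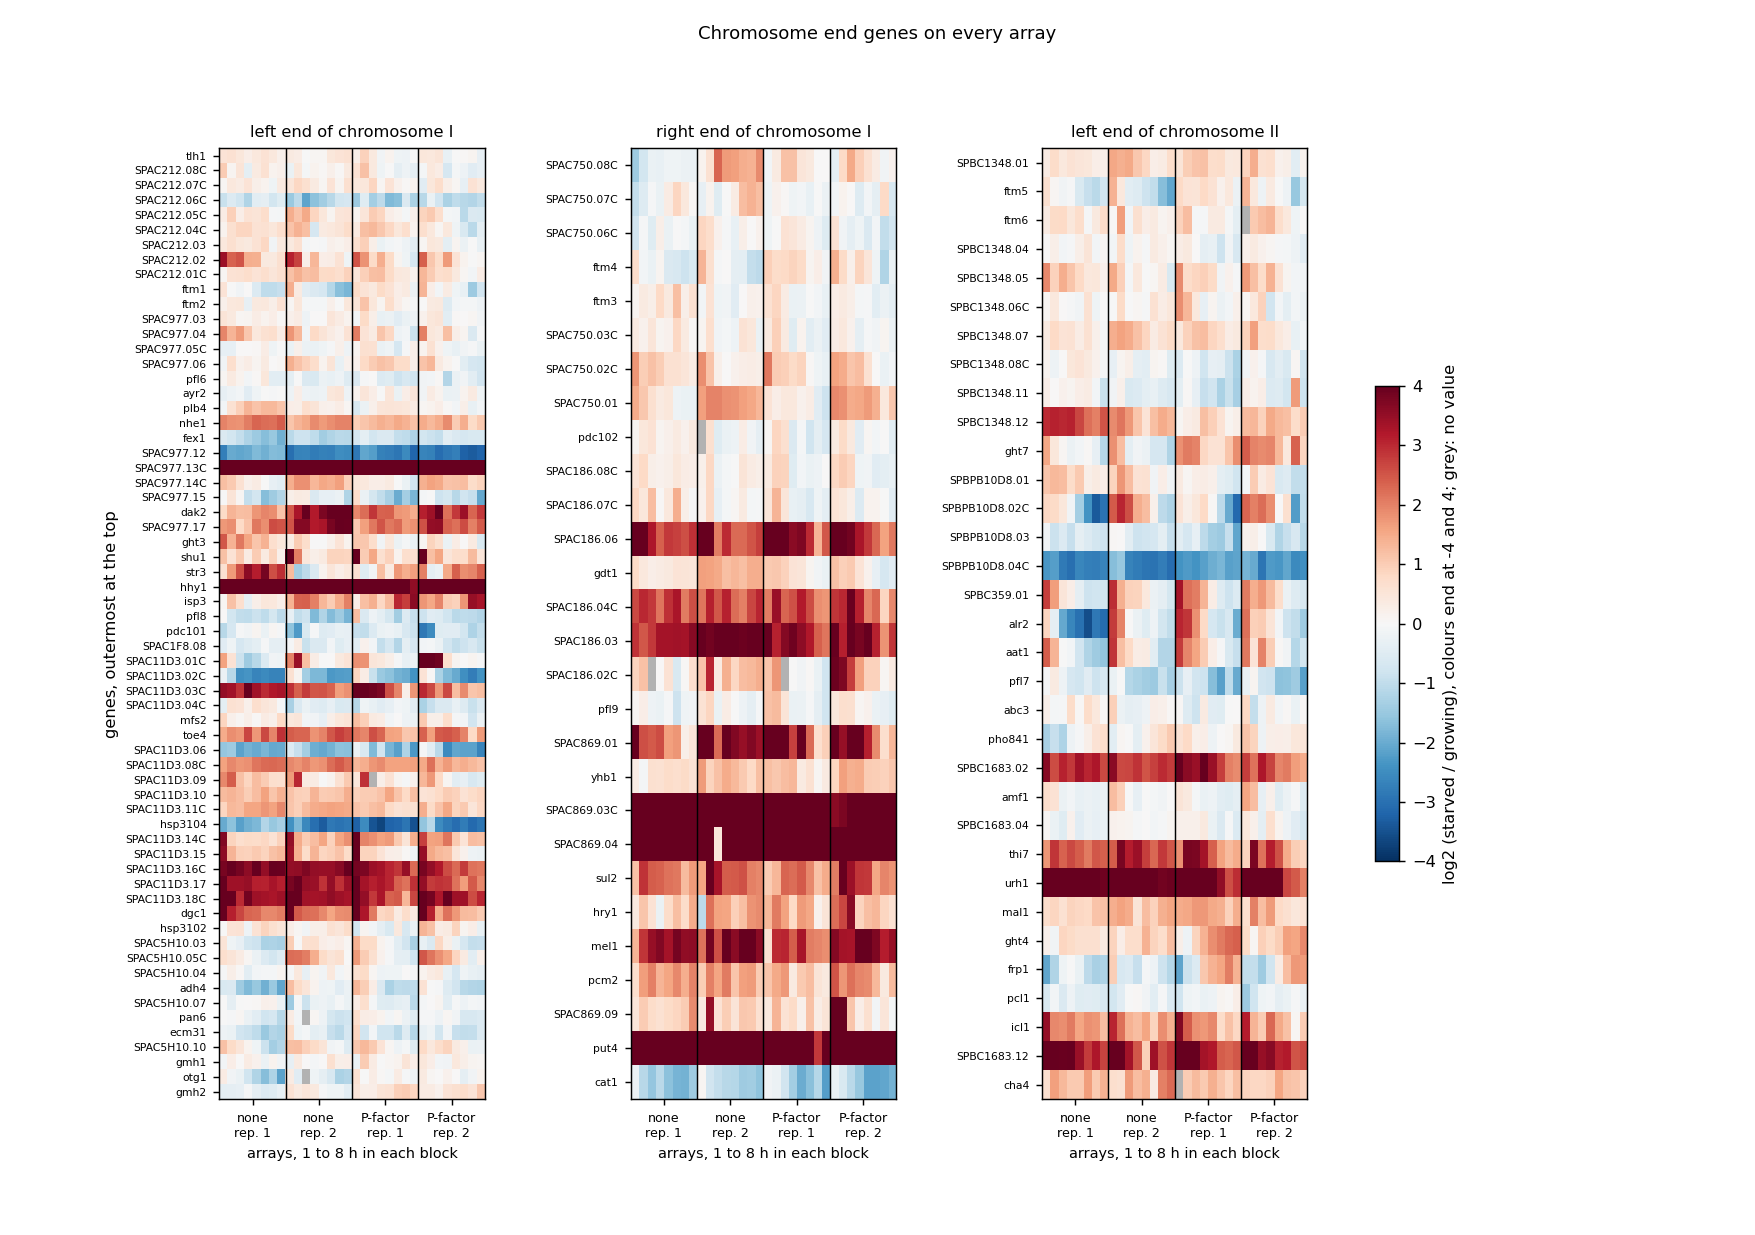
Log2 ratio of starved over growing cells for each of the 125 chromosome end genes (rows, outermost gene at the top) on each of the 32 arrays (columns, 1 to 8 h within each block of a condition and replicate). Red is above and blue below growing cells, colours end at -4 and 4, and grey cells hold no value. The rows that stay dark red across all blocks include hhy1, SPAC977.13C, SPAC869.03C, SPAC869.04 and put4.

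The genes with the largest increases were spread over all of these ends. SPAC869.04, at the right end of chromosome I, averaged 7.10 ± 0.66 without P-factor and 7.31 ± 0.66 with it. Its 16 arrays with P-factor ran from 5.28 to 8.78, and 15 of the 16 without P-factor from 6.09 to 9.02. The remaining array, replicate 2 at 3 h, read 0.47. The late change without P-factor was 2.32 ± 0.66 (adjusted p = 0.00678), and 1.1 (adjusted p = 0.139) when all arrays of that replicate were left out. Its neighbour SPAC869.03C averaged 6.41 ± 0.31 and 6.13 ± 0.31. Without P-factor its 6 late arrays (6.78 to 7.70) all lay above its 6 early ones (4.49 to 6.36). The gene hhy1, at the left end of chromosome I, averaged 6.76 ± 0.33 and 6.25 ± 0.33, and SPAC977.13C at the same end 5.26 ± 0.23 and 5.10 ± 0.23.

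Genes for the use of nitrogen compounds ranged from far above growing cells to below them. The grouping by role was made after the values were seen and holds 7 genes, with 8-hour means from -1.19 to 5.35 without P-factor. The proline permease gene put4 averaged 5.35 ± 0.23 without P-factor, where its 16 arrays stayed between 5.00 and 5.95, and 5.05 ± 0.23 with it, where they ran from 2.83 to 6.50. The uridine ribohydrolase gene urh1, at the left end of chromosome II, averaged 4.94 ± 0.18 and 4.39 ± 0.18 and read above 2 on every array. The gene dgc1 was highest at 1 h, with 8.30 and 6.40 on the arrays without P-factor and 7.30 and 6.20 on those with it. By 2 h it had dropped to between 2.46 and 3.24 on those 4 series. The gene cat1 was lower than in growing cells in both conditions (-1.19 ± 0.14 and -1.33 ± 0.14).

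At the left end of chromosome II lie the adjacent genes aat1, for an amino acid transporter, and alr2, for an alanine racemase. With P-factor both went from above growing cells to below them, and aat1 did so without it too. The aat1 arrays read 2.42, 2.86, 2.80 and 2.10 at 1 h and -1.57, -1.16, -0.93 and -0.74 at 8 h, in the order of replicate 1 and 2 without P-factor and replicate 1 and 2 with it. All 6 late arrays of aat1 lay below all 6 early ones in either condition. The alr2 arrays ran from 0.96 to 3.05 early and from -1.99 to -0.64 late with P-factor. Without P-factor replicate 1 of alr2 read lower than replicate 2 at every hour. Its 8-hour mean without P-factor, -0.91 ± 0.34 (adjusted p = 0.0216), was 0.27 (adjusted p = 0.343) without replicate 1.

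**Figure D2:**
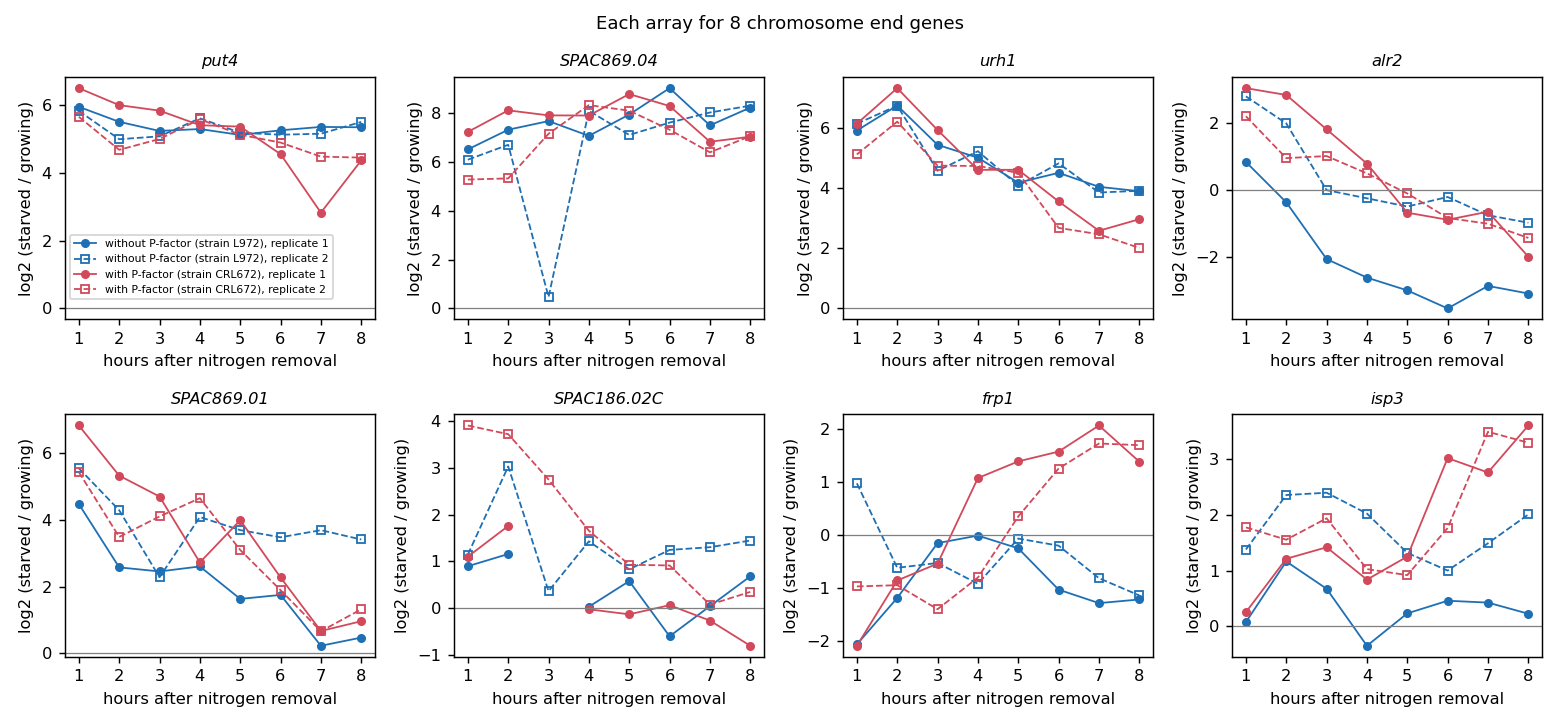
Log2 ratio of starved over growing cells (vertical axis) by hour after nitrogen removal (horizontal axis) for 8 chromosome end genes, with 1 line for each array series and a gap where an array has no value. Blue is without and red with P-factor, and filled circles with solid lines are replicate 1 and open squares with dashed lines replicate 2. The lines of put4, urh1 and SPAC869.01 end lower with P-factor than they start, those of frp1 and isp3 end higher, and SPAC869.04 has a single low array at 3 h.

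The lowest averages came from chromosome ends I left and II left, and the first of the genes given here were chosen after their values were seen. SPBPB10D8.04C averaged -2.59 ± 0.15 without P-factor and -2.23 ± 0.15 with it. SPAC977.12 stood at -2.35 ± 0.15 and -2.81 ± 0.15, and hsp3104, which encodes a protein of the DJ-1 family, at -2.22 ± 0.25 and -2.85 ± 0.25. These genes read below growing cells on all 32 arrays.

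With time after nitrogen removal, the medians of the chromosome end genes moved toward the level of growing cells in both conditions. The late change is how far the mean of 6, 7 and 8 h lies above that of 1, 2 and 3 h. With P-factor 93 of the 125 fell and 8 rose, against 19.8% falling and 33.7% rising of all genes tested, with a median of -0.81 against 0.11. Without P-factor 50 fell and 13 rose, against 18.3% and 24% of all genes, with a median of -0.29 against 0.05. A fall of more than 2-fold was found for 46 of the 125 with P-factor and 23 without, against 220 and 143 of all 4811 genes. Of the 50 genes that fell without P-factor 90% also fell with it, and of the 93 that fell with it 48.4% also fell without. Among all genes the same shares were 49.7% and 46.0%. These overlaps start from unlike levels. Of the 125 genes 74.4% fell with P-factor and 40% without it, against 19.8% and 18.3% of all genes.

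The arrays offer a yardstick that moved in the same direction. They carry 320 probes that name no single gene, and with P-factor the median late change of the 319 with values was -0.54 (-0.67 and -0.45 in the medians of replicates 1 and 2), while without P-factor it was 0.07. With P-factor 49 of the 125 chromosome end genes fell below the 5th percentile of these probes, at -0.95, as did 5.01% of all genes. Of the 49, 20 lay at the left end of chromosome I, 15 at its right end and 14 at the left end of chromosome II. Without P-factor 53 lay below the 5th percentile, at -0.46, as did 14.2% of all genes. What these probes measure, and their part in the fall of the chromosome end genes, was not tested.

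Centring each array on these probes raised the median late change of all genes with P-factor from 0.11 to 0.67. Under that centring 48 chromosome end genes still fell and 21 rose with P-factor, against 4.41% falling and 69.4% rising of all genes, and their median was -0.25. All 48 were among the 93, and 45 of them fell under each of the 14 alternatives tried. Without P-factor that centring gave 49 falling and 10 rising, against 15.7% and 18.3% of all genes, with a median of -0.32 against 0.01.

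**Figure D3:**
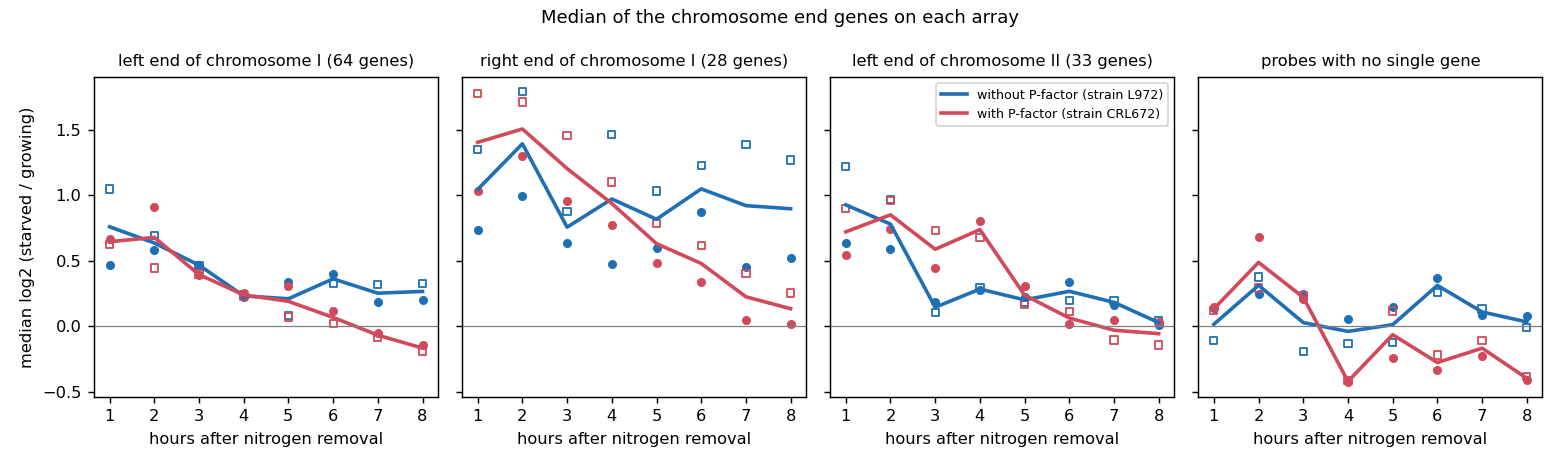
Median log2 ratio of starved over growing cells over the genes of each chromosome end, and over the probes with no single gene (right panel), by hour after nitrogen removal. Circles are arrays of replicate 1, squares those of replicate 2 and lines the mean of both, in blue without and in red with P-factor. With P-factor the medians of the chromosome ends drop from 1 to 8 h, and those of the probes with no single gene lie at -0.43 and -0.41 at 4 h.

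Hour by hour, the left end of chromosome I had medians of 0.67 and 0.62 on the 2 arrays with P-factor at 1 h, 0.25 and 0.22 at 4 h and -0.14 and -0.19 at 8 h. Without P-factor its medians were 0.47 and 1.05 at 1 h and 0.20 and 0.33 at 8 h. At the right end of the chromosome the P-factor arrays went from 1.03 and 1.78 at 1 h through 0.77 and 1.10 at 4 h to 0.01 and 0.25 at 8 h. Without P-factor that end kept medians of 0.52 and 1.27 at 8 h, and replicate 2 read above replicate 1 at each of the 8 hours. The left end of chromosome II went from 0.54 and 0.90 at 1 h to 0.03 and -0.14 at 8 h with P-factor, and from 0.63 and 1.22 to 0.01 and 0.04 without it. At that end the late medians of the conditions came close to each other, and at the right end of chromosome I they lay apart.

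All of these ends took part in the late fall with P-factor. At the left end of chromosome I 46 of 64 genes fell (median -0.71), at its right end 22 of 28 (median -1.0) and at the left end of chromosome II 25 of 33 (median -0.90). Centred on the probes with no single gene the numbers were 20, 14 and 14, with medians of -0.15, -0.44 and -0.34. Without P-factor 25, 8 and 17 genes of these ends fell, with medians of -0.26, -0.06 and -0.61. Of all genes 19.8% fell with P-factor, 18.3% without it, and 4.41% with P-factor when centred on those probes. The clone SPAC186, at the right end of chromosome I, had all 9 genes falling with P-factor (median -1.17). Without P-factor 2 of the 9 fell, which is 22.2% against 18.3% of all genes. Centred on the probes with no single gene, all but SPAC186.07C and SPAC186.04C still fell with P-factor. Those genes, singled out for this, stood at -0.29 and -0.50 (adjusted p = 0.129 and 0.123). The 5 genes of SPBC359, at the left end of chromosome II, had the deepest median of any clone (-2.43 with P-factor and -2.31 without), and 4 of them fell in each condition. All 6 late arrays with P-factor lay below all 6 early ones for 39 of the 125 genes, as for 7.13% of all genes, and without P-factor for 12, as for 3.76% of all genes. The reverse held for 3 genes with P-factor and 4 without, against 14.6% and 6.98% of all genes.

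**Figure D4:**
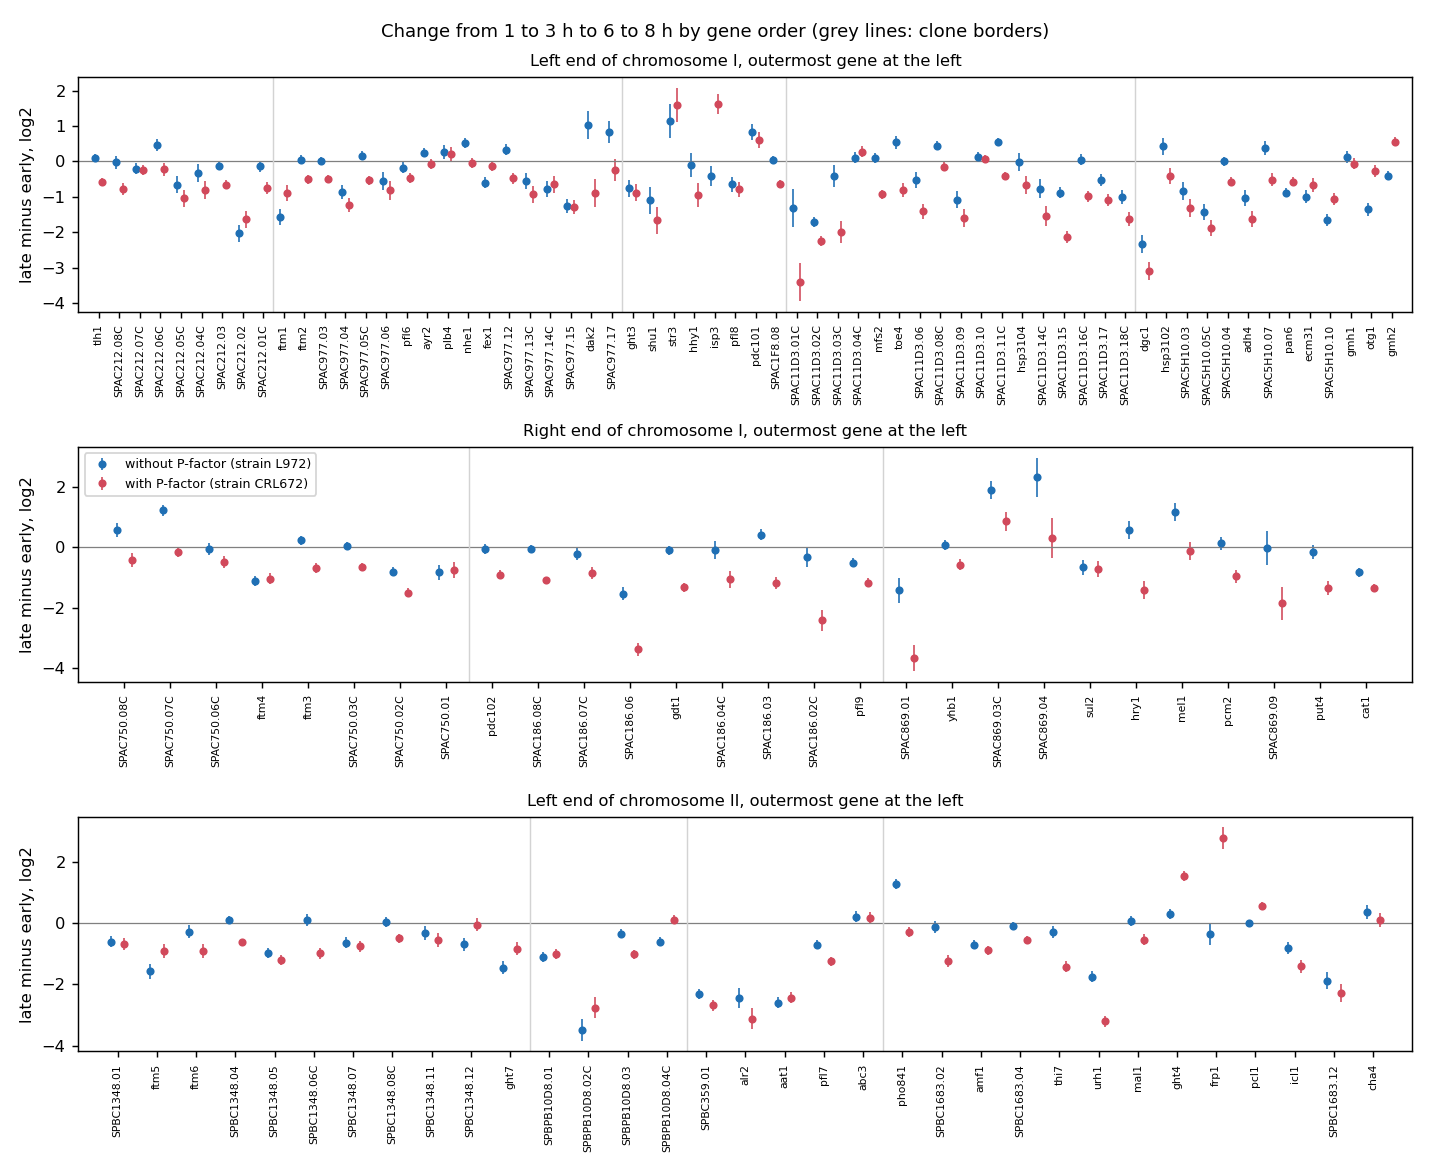
Late change (6 to 8 h against 1 to 3 h, log2) of each chromosome end gene, in blue without and in red with P-factor, with bars of 1 standard error. Genes run from the outermost at the left inward in 1 panel for each chromosome end, spaced evenly, and grey lines mark the borders between clones. Most red points lie below 0, in runs of neighbours such as the SPAC186 genes, and frp1, ght4, isp3 and str3 stand above 1.

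The falls with P-factor were led by genes at each of these ends. SPAC869.01, at the right end of chromosome I, ranged from 3.49 to 6.83 (median 5.01) on its early arrays with P-factor and from 0.66 to 2.28 (median 1.14) on its late ones. These ranges do not overlap, and its late change was -3.68 ± 0.42 (adjusted p = 2.09e-07) with P-factor and -1.43 ± 0.42 (adjusted p = 0.00879) without. SPAC186.06, in the next clone outward, went from 3.86 to 6.67 early to 1.36 to 3.00 late with P-factor, a change of -3.38 ± 0.22 (adjusted p = 2.03e-11). SPAC11D3.01C, at the left end of chromosome I, changed by -3.39 ± 0.54 (adjusted p = 1.92e-05) with P-factor. Its early arrays of replicate 2 read 5.20, 6.63 and 3.90, far above those of replicate 1 at 1.83, 1.81 and 0.48, while all late arrays lay between -0.30 and 0.11. The gene urh1 ran from 4.75 to 7.32 early and from 2.01 to 3.56 late with P-factor, a change of -3.20 ± 0.18 (adjusted p = 2.96e-12). Without P-factor urh1 fell by 1.75 ± 0.18 on the log2 scale (adjusted p = 1.07e-07).

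Of the 7 nitrogen compound genes, all fell with P-factor (median -2.43), against 19.8% of all genes. Without it 6 fell (median -1.75), against 18.3% of all genes, the exception being put4 at -0.14 ± 0.23. Centred on the probes with no single gene, 6 still fell with P-factor, against 4.41% of all genes. The ammonium transporter family gene amf1 did not pass. The late arrays of put4 with P-factor ran from 2.83 to 4.90 and its early ones from 4.68 to 6.50, so the groups overlapped slightly. Its change was -1.35 ± 0.23 (adjusted p = 4.62e-05). The changes of alr2, dgc1 and aat1 with P-factor were -3.11 ± 0.34, -3.09 ± 0.26 and -2.43 ± 0.18. The first of these genes and aat1 fell about as far without P-factor, by 2.44 ± 0.34 and 2.60 ± 0.18 on the log2 scale. The change of dgc1 without P-factor was -2.33.

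Of 5 genes for iron and haem, 3 rose and 1 fell with P-factor, against 33.7% and 19.8% of all genes. Without it 1 fell and none rose, against 18.3% and 24% of all genes. Centred on the probes with no single gene, 4 rose and 1 fell with P-factor, against 69.4% and 4.41% of all genes. The frp1 gene, for a ferric-chelate reductase at the cell surface, read between -2.10 and -0.55 on its early arrays with P-factor and between 1.25 and 2.06 on its late ones. Without P-factor its late arrays ran from -1.29 to -0.21, within the range of its early ones. The late change was 2.75 ± 0.35 (adjusted p = 1.02e-06) with P-factor and -0.35 ± 0.35 (adjusted p = 0.452) without. The siderophore-iron transporter gene str3 rose by 1.60 ± 0.48 (adjusted p = 0.00771) with P-factor. That call was lost without either P-factor series (1.59 and 1.61, adjusted p = 0.113 and 0.106). Without P-factor the replicates of str3 lay far apart, with 2.60 and -1.04 at 3 h and 3.84 and 0.48 at 6 h.

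The gene shu1, for a haem-binding surface protein, was high at 1 h alone, at 4.14 and 4.40 with P-factor and at 5.44 in replicate 2 without it, where replicate 1 read 1.16. It fell by 1.67 ± 0.39 with P-factor (adjusted p = 0.00106), a size kept without either P-factor series (-1.59 and -1.75) although neither value passed (adjusted p = 0.0781 and 0.0537). The vacuolar iron transporter gene pcl1 rose by 0.56 ± 0.13 with P-factor (adjusted p = 0.000873), and the ABC transporter gene abc3 stood at 0.17 ± 0.17.

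Among 9 genes of sugar uptake and fermentation, 5 fell and 2 rose with P-factor (median -0.84), against 19.8% falling and 33.7% rising of all genes. Centred on the probes with no single gene 2 fell and 2 rose, against 4.41% and 69.4% of all genes. That centring moved the maltase gene mal1 from -0.54 to 0.02. The hexose transporter gene ght4 rose by 1.54 ± 0.17 (adjusted p = 1.24e-07). Its late arrays with P-factor read 1.58 to 2.38 and its early ones -0.21 to 0.95. The related ght7 was on average 1.50 ± 0.22 above growing cells with P-factor and at 0.00 ± 0.22 without it. Its late change was -0.84 ± 0.22 with P-factor and -1.45 ± 0.22 without, and that of ght3 was -0.88 ± 0.23 and -0.76 ± 0.23. The alpha-galactosidase gene mel1 averaged 3.42 ± 0.30 and 2.96 ± 0.30 and its late change was 1.17 ± 0.30 without P-factor and -0.12 ± 0.30 with it, a difference of -1.29 ± 0.43 (adjusted p = 0.0283). Without either series of the condition without P-factor that difference did not pass. The pyruvate decarboxylase genes pdc101 and pdc102 lie at opposite ends of chromosome I. With P-factor pdc101 stood at 0.60 ± 0.23, passing the test (adjusted p = 0.033), and pdc102 at -0.91 ± 0.14 (adjusted p = 1.9e-05). The pdc101 call was lost in 6 alternatives, among them without P-factor replicate 2 (0.22, adjusted p = 0.511).

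The surface and spore wall genes were 8 in number, and 4 fell and 2 rose with P-factor, against 19.8% and 33.7% of all genes. Centred on the probes with no single gene 2 fell and 3 rose, against 4.41% and 69.4%. Without P-factor 5 fell and none rose, against 18.3% and 24% of all genes. The flocculin genes pfl6, pfl7, pfl8 and pfl9 all fell with P-factor, by 0.47 ± 0.14, 1.25 ± 0.15, 0.79 ± 0.21 and 1.17 ± 0.15 on the log2 scale, except that pfl6 moved to 0.09 when centred on the probes with no single gene. Under that centring pfl8 did not pass (-0.23, adjusted p = 0.375), and neither pfl6 nor pfl8 passed without P-factor replicate 1 (-0.37 and -0.47, adjusted p = 0.142 and 0.0823). The gene isp3, for a protein of the spore coat, was already above growing cells early (0.26 to 1.94 with P-factor) and reached 1.77 to 3.61 late. It rose by 1.63 ± 0.28 (adjusted p = 4.9e-05) with P-factor and stood at -0.41 ± 0.28 without. The galactosyltransferase genes gmh2 and otg1 lie side by side at the inner border of the left end of chromosome I. With P-factor gmh2 rose by 0.55 ± 0.13 and otg1 stood at -0.27 ± 0.17, and without it they fell by 0.41 ± 0.13 and 1.35 ± 0.18. The rise of gmh2 was 0.49 (adjusted p = 0.074) without P-factor replicate 1. Its late change without P-factor was -0.09 (adjusted p = 0.748) without replicate 2 of that condition.

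Members of repeated families were compared across ends. The ftm genes lie at all of these ends, with ftm1 and ftm2 at the left end of chromosome I, ftm3 and ftm4 at its right end and ftm5 and ftm6 at the left end of chromosome II. All 6 fell with P-factor (median -0.90, from -1.04 to -0.50), against 19.8% of all genes. Centred on the probes with no single gene only ftm4 passed, against 4.41% of all genes falling, and ftm2 turned to 0.06. Over 32 arrays ftm1, ftm4 and ftm5 had Pearson correlations from 0.948 to 0.994 with each other, and ftm1 and ftm5 differed by a median of 0.06. The pairs among ftm2, ftm3 and ftm6 had correlations from 0.411 to 0.539, and pairs across these groups from 0.018 to 0.324. Leaving out P-factor replicate 1 lost the falls of ftm2 and ftm3 (-0.39 and -0.65, adjusted p = 0.0811 and 0.0521), and leaving out replicate 2 those of ftm1 and ftm5 (-0.42 and -0.49, adjusted p = 0.243 and 0.187). The arrays share the course of starvation, and whether probes of ftm genes share sequence was not tested. Without P-factor ftm1, ftm4 and ftm5 fell by 1.56 ± 0.22, 1.12 ± 0.18 and 1.58 ± 0.23, and ftm2, ftm3 and ftm6 stood at 0.05 ± 0.13, 0.24 ± 0.16 and -0.29 ± 0.21.

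The helicase gene tlh1, a marker of the telomere-adjacent domain, read near growing cells throughout. Without P-factor its arrays ran from -0.00 to 0.60, with a mean of 0.37 ± 0.12 (adjusted p = 0.00893). With P-factor its early arrays ran from 0.22 to 0.93 and its late ones from -0.33 to 0.11, without overlap, and the late change was -0.58 ± 0.12 (adjusted p = 0.000302). That change was about the size of the median change of the probes with no single gene, and tlh1 did not pass when centred on them. Of the 9 genes measured in its clone, SPAC212, 7 fell with P-factor, against 19.8% of all genes. Centred on the probes with no single gene, only SPAC212.02 still fell (-1.07, adjusted p = 8.79e-05), against 4.41% of all genes. The others then ran from -0.48 to 0.34 and did not pass. Without P-factor 2 of the 9 fell under the main centring, which is 22.2% against 18.3% of all genes.

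Under the main centring, chromosome end genes fell in every band of their mean ratio to growing cells. Of the 68 chromosome end genes with a mean below 0.5 with P-factor, 50 fell (median -0.66), against 17.5% of the 3469 genes in that band. Of the 35 between 0.5 and 2, 26 fell (median -0.80), against 22.6% of all genes there. Of the 22 at 2 or more, 17 fell (median -1.14), against 43.4% of the 198 genes in that band. The bands use the mean over the same arrays that give the late change, so these figures are a description. The median of the lowest band was near that of the probes with no single gene (-0.54). Centred on those probes, 48 of the 93 falls passed, and they were not counted by band.

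The difference between the conditions was then tested directly. Averaged over 1 to 8 h, 2 chromosome end genes were higher with P-factor and 2 lower, against 2.12% and 1.21% of all genes. The higher genes were ght7 (1.50 ± 0.31, adjusted p = 0.00802) and gmh2 (0.69 ± 0.19, adjusted p = 0.0407), and the lower ones SPBC1348.12 (-1.24 ± 0.31, adjusted p = 0.0299) and SPBPB10D8.01 (-0.81 ± 0.23, adjusted p = 0.0487). On every array ght7 with P-factor lay between 0.41 and 2.44, and without it between -1.20 and 1.83, so its groups overlapped over the whole course. None of these 4 calls held in every fit that left out 1 array series: ght7 was lost without P-factor replicate 2 (1.35, adjusted p = 0.0831), and the others without either P-factor series and without replicate 1 of the arrays without P-factor. In those fits gmh2 stood between 0.45 and 0.73, SPBC1348.12 between -1.58 and -0.61 and SPBPB10D8.01 between -0.86 and -0.74.

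The late change differed between the conditions for more genes. It was lower with P-factor for 46 chromosome end genes and higher for 7, against 10.2% and 15.6% of all genes, with a median of -0.57 that became 0.03 when centred on the probes with no single gene. At the right end of chromosome I 17 of 28 genes were lower (median -1.02) and none higher, against 22 of 64 lower and 3 higher at its left end (median -0.54) and 7 of 33 lower and 4 higher at the left end of chromosome II (median -0.26). No test compared the ends with each other. Centred on the probes with no single gene, the ends had 8, 3 and 2 lower calls and 0, 11 and 10 higher ones, so that higher calls outnumbered lower ones at both left ends. Their medians were then -0.43, 0.06 and 0.33, while 55.9% of all genes were then called higher and 1.12% lower (all-gene median 0.65).

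Those 13 genes were urh1, pho841, toe4, mfs2, gdt1, hry1, SPAC869.01, SPAC750.07C, SPAC11D3.15 and the SPAC186 genes SPAC186.02C, SPAC186.03, SPAC186.06 and SPAC186.08C, of which SPAC750.07C, SPAC11D3.15, SPAC186.03 and SPAC186.08C were singled out after their values were seen. All but hry1, SPAC869.01 and SPAC186.02C were also lower under each of the 14 alternatives. The phosphate transporter gene pho841 read -1.28 to 0.07 early and 0.24 to 1.04 late without P-factor, and stayed between -0.19 and 1.14 with it. Its difference was -1.57 ± 0.23 (adjusted p = 3.39e-05), and it was the only chromosome end gene called at 1 h, where it was higher with P-factor. The gene gdt1, for a Golgi ion transporter, ran from 0.93 to 1.18 early and from -0.68 to 0.10 late with P-factor, against 0.26 to 1.64 and 0.47 to 1.45 without. Its difference was -1.23 ± 0.21 (adjusted p = 0.00017). For urh1 the difference was -1.45 ± 0.26 (adjusted p = 0.000263), and for SPAC186.06 it was -1.83 ± 0.31 (adjusted p = 0.000152).

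Some large differences did not pass when 1 array series was left out. That of SPAC11D3.01C, -2.08 ± 0.77 (adjusted p = 0.0493), became -0.26 (adjusted p = 0.783) without P-factor replicate 2, and was also lost without either series of the other condition. The difference of SPAC869.01, -2.25 ± 0.60 (adjusted p = 0.00761), was -1.33 (adjusted p = 0.168) without replicate 2 of the arrays without P-factor and -1.62 (adjusted p = 0.119) without P-factor replicate 1. For put4 the difference of -1.21 ± 0.33 (adjusted p = 0.00907) was -0.36 (adjusted p = 0.239) without P-factor replicate 1, whose 7 h array read 2.83 where replicate 2 read 4.48. It was lost without either series of the other condition too. For hry1 the difference of -1.99 ± 0.44 (adjusted p = 0.00201) was -1.50 (adjusted p = 0.0598) without P-factor replicate 2.

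The 7 genes whose late change was higher with P-factor were frp1 (3.11 ± 0.50, adjusted p = 9.98e-05), isp3 (2.04 ± 0.40, adjusted p = 0.000743), ght4 (1.25 ± 0.24, adjusted p = 0.000587), otg1 (1.1 ± 0.25, adjusted p = 0.003), gmh2 (0.96 ± 0.19, adjusted p = 0.000631), SPBPB10D8.04C (0.72 ± 0.21, adjusted p = 0.014) and pcl1 (0.57 ± 0.18, adjusted p = 0.0216). The first 4 were called under each of the 14 alternatives. Without replicate 2 of the arrays without P-factor gmh2 stood at 0.64 (adjusted p = 0.0504), and pcl1 did not pass without any 1 of the 4 series (0.49 to 0.66, adjusted p from 0.0645 to 0.209). All 7 genes lie at the left ends of chromosomes I and II. The only measured mug or meu gene of these clones, mug14 (SPBC359.06), which the rule leaves out, had a difference of 4.09 ± 0.44 (adjusted p = 5.98e-07).

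At single hours few differences passed. At 1 h 1 gene was higher with P-factor, against 0.0831% of all genes, and none was lower, when 0.0831% of all genes were lower. From 2 to 5 h none was called in either direction, where 0.0208% of all genes were higher and 0.0416% lower at 2 h, 0% and 0.0208% at 3 h, 0% and 0.104% at 4 h, and 0.748% and 0.249% at 5 h. At 6 h 1 was higher and 7 lower, against 3.47% and 0.894% of all genes. At 7 h 5 were higher and 10 lower, against 5.34% and 1.85%. At 8 h 6 were higher and 12 lower, against 6.36% and 2.54%. At 7 and 8 h the higher genes included frp1, ght4, ght7, gmh2 and isp3, and the lower ones urh1, thi7, toe4, gdt1 and nhe1. Of these, thi7 is named for thiamine uptake and nhe1 encodes a sodium and proton antiporter. The arrays of thi7 at 8 h read 2.40 and 2.50 without P-factor and 1.48 and 0.86 with it.

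Many other genes near the chromosome ends fell too with P-factor, though not at each end. Among 81 genes of other clones that lie within the 60 genes nearest to an end of chromosome I or II, 45 fell and 11 rose with P-factor (median -0.55), which is 55.6% and 13.6% against 19.8% and 33.7% of all genes. Without it 20 fell and 13 rose (median -0.02), which is 24.7% and 16% against 18.3% and 24%. Their median with P-factor was about that of the probes with no single gene (-0.54). Of the 81, 46 lie at the right end of chromosome II, where the rule found no probe, and 23 of them fell with P-factor (median -0.50). At the right end of chromosome I 20 of 29 fell (median -0.71). At the left end of chromosome II 3 of 5 rose and 1 fell (median 0.38). Of 41 measured genes that act in silencing or at telomeres, 19 rose and 4 fell with P-factor (median 0.37), which is 46.3% and 9.76% against 33.7% and 19.8% of all genes. Without it 13 rose and 4 fell (31.7% and 9.76%, against 24% and 18.3%). Neither these genes nor the 81 were counted with arrays centred on the probes with no single gene. Under that centring 69.4% of all genes rose with P-factor and 4.41% fell. With P-factor the late changes of the 41 genes ran from -0.87 for epe1, whose protein opposes heterochromatin, to 1.55 for chp2. Without P-factor epe1 stood at -0.41, also a fall. With P-factor the Clr3 deacetylase gene clr3 stood at 1.33 and the shelterin gene pot1 at 1.19. In the same list ptf2, cid12 and dcr1 fell (-0.73, -0.51 and -0.38), and swi6 and clr4 were not called (0.09 and -0.13). The genes named here were singled out from that list. Their transcript levels say nothing of chromatin at the ends, which the arrays did not measure.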

How the data were processed

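The deposited values are the authors' log2 ratios, 1 for each probe and array, and the dyes in the labels give their direction. The authors' background and normalization steps are not given in the sources used here, and 0.456% of values were missing. Precision is limited by the number of arrays, which carry no depth. A platform table gave 1 gene for 4868 of 5188 probes, several for 22 and none for 298, and 4842 of the 4868 matched a gene of the RefSeq table (assembly ASM294v3) by gene ID. That table served for names and gene order alone.

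Probes of 1 gene were averaged, each array was centred on its median over these genes and the probes with no single gene, and genes with values on at least 24 of 32 arrays were tested with limma 3.58.1 in R 4.3.3. One fit held a mean for each of the 16 groups, with the 4 array series as a random block (correlation 0.354 within a series), 16 residual and 6.32 prior degrees of freedom. The fit was tested on simulated data. The labels do not number replicates, so these numbers follow the accession order and pair nothing. Per the labels each condition was done again as a repeat, and p-values measure the spread between these arrays, without the spread of growing cells.

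The chromosome end genes, the lists and the role groups were chosen with earlier results of these data known. Named are members with a symbol, the 3 largest calls of each comparison and chromosome end with the same sign in every series, and genes marked as singled out. Alternatives covered centring, scaling, filters, block, variance moderation, hours and each series left out. Probe sequences, promoters and proteins were not analysed here.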

Additional observations from a re-analysis of the deposited data

Results flagged for a closer look

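For 9 chromosome end genes named for it, the largest at each end, the late change differed between the conditions in limma's test of the difference itself. With P-factor minus without it, the difference was positive for frp1 (3.11, adjusted p = 9.98e-05) and isp3 (2.04, adjusted p = 0.000743). It was negative for pho841 (-1.57, adjusted p = 3.39e-05), urh1 (-1.45, adjusted p = 0.000263), SPAC869.01 (-2.25, adjusted p = 0.00761), SPAC186.02C (-2.10, adjusted p = 0.00299), hry1 (-1.99, adjusted p = 0.00201), dak2 (-1.92, adjusted p = 0.014) and SPAC11D3.01C (-2.08, adjusted p = 0.0493). The dihydroxyacetone kinase gene dak2 had replicates far apart, at 1.22 and 4.28 without P-factor at 3 h and 2.85 and 5.35 with it. Its difference was lost without replicate 2 of either condition (-1.44 and -1.71, adjusted p = 0.118 and 0.081). The dak2 difference was also lost when centred on the probes with no single gene (-1.32, adjusted p = 0.0608) and with no block (adjusted p = 0.255). With 7 and 8 h minus 1 and 2 h it was -1.87 (adjusted p = 0.0569). With 6 and 8 h minus 1 and 3 h it was -1.91 (adjusted p = 0.0578). SPAC186.02C had no value at 3 h in replicate 1 of either condition.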

How the results depend on the processing

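For named genes 2896 values were computed under alternatives. Of these 2637 kept their direction and their side of the threshold, 250 kept the direction but no longer passed, and 9 reversed. Leaving out 1 array series, the 8-hour means without P-factor ran from -2.08 to 0.27 for alr2, from -0.0553 to 2.63 for str3 and from -1.42 to 0.20 for adh4, reversing without replicate 1 of those arrays. The late change of SPAC869.03C with P-factor ran from -0.23 to 1.95, reversing without P-factor replicate 2. Centred on the probes with no single gene, the late changes of pfl6, ftm2 and mal1 with P-factor were 0.0921, 0.0562 and 0.0162, and the differences of nhe1 and ftm2 were 0.0362 and 0.0349. That centring gave 21 rises and 48 falls with P-factor, 21 higher and 13 lower differences of the late change and 1 lower difference of the 8-hour mean. With no block, 8 genes rose late without P-factor, 5 with it, 23 differences of the late change were lower, and the 8-hour mean differed higher for 17 and lower for 27. The mean of 3 to 8 h gave 6 lower. Late as 7 and 8 h minus 1 and 2 h gave 28 lower differences, and 6 and 8 h minus 1 and 3 h, chosen after seeing the data, gave 30, with 5 rises with P-factor. Leaving out each array series in turn gave 8 to 14 rises and 33 to 52 falls without P-factor, 5 to 6 rises with it, 22 to 40 lower differences of the late change, and 0 to 17 higher and 0 to 17 lower differences of the 8-hour mean. In those fits 1 condition has 1 array an hour, which is assumed to vary like the others. With the series as a fixed term (replicate block) 51 genes fell and 17 rose late without P-factor, 95 fell and 8 rose with it, and 50 differences were lower and 8 higher. The causes were not tested.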
